A study of Homo sapiens with 4 samples.

Results

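ATF4 and a group of its target genes, 6 amino acid transporters and 13 cytosolic tRNA synthetases are described here in BJ cells, an established line of human foreskin fibroblasts. The 33 genes were chosen by their symbols from 58870 genes listed in each table, after earlier results of the same comparison were known, so their differences between the groups, and the counts of members past a threshold, are given as a description only. Of the 33, 14 are ATF4 and its targets, and the rows were found by the symbol attached to each gene identifier. Total RNA was sequenced in 4 libraries. The 2 control libraries came from cells given the solvent DMSO and carry the word young in their titles. The 2 Dox libraries came from cells given Dox at 250 nM and carry the word aged, Dox being an abbreviation that the labels do not spell out. Exposure to DMSO or Dox lasted 24 hours in the series design and was followed by 10 days in which cells were allowed to senesce, although the wording of the sample protocol can be read in the opposite order. Both groups share the same medium, serum and incubation, and the series sets out to compare gene expression with and without Dox. Separate cultures are not named for the replicates, so a p-value here reflects the spread between libraries alone, which may be technical.

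As background, ATF4 is the transcription factor of the integrated stress response. Stress-activated kinases phosphorylate the initiation factor eIF2, which lowers general translation but lets ribosomes reach the ATF4 reading frame, and ATF4 then pairs with C/EBP or other bZIP proteins on C/EBP-ATF response elements. Its targets include enzymes that make amino acids, carriers that import them and the synthetases that load them onto tRNA, together with feedback and death-related genes such as TRIB3, DDIT3 and CHAC1. ATF4 is regulated at the level of translation as well as transcription, and RNA counts do not measure its protein.

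The C/EBP-ATF response element is the sequence that ATF4 is known to bind with its partners, and 13 of the 28 members found in the RefSeq promoter table (GRCh38.p14) held a match to its core near an annotated start. The letters searched were TGATGNAA on both strands, from 250 bases before to 50 bases after each start, and no other motif was searched. Of the members' 46 windows 28.3% held a match, beside 3.62% of all 35116 windows in the table. By gene the shares were 46.4% of 28 members and 4.46% of all 27305 genes. Matches are shown for 12 members because they show one set of letters recurring at different distances, each as 30 bases on the gene's strand with the 8 core bases in capitals.
ATF3: aaaggtcaggaTGATGGAAggctgtcatat
CHAC1: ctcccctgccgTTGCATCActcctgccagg
ASNS: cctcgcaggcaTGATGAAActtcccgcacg
SLC1A5: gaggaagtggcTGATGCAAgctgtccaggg
SLC1A4: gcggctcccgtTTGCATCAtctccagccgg
AARS: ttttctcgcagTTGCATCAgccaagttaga
CARS: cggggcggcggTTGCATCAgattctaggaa
GARS: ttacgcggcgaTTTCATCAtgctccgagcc
IARS: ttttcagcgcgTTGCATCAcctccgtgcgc
MARS: gccggttccggTTGCATCAgcgagggattc
NARS: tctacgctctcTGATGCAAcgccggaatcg
TARS: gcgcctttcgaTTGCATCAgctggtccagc

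Read in the TGATG direction, 9 of the 13 matches were TGATGCAA, a form found in 0.866% of all windows in the table. TGATGAAA occurred at 2 members, ASNS and GARS, TGATGGAA at ATF3 and TGATGTAA at SLC3A2. On GRCh38 the windows shown lie at chr1:212565205-212565234 (ATF3), chr15:40953251-40953280 (CHAC1), chr7:97872458-97872487 (ASNS), chr19:46784893-46784922 (SLC1A5), chr2:64989381-64989410 (SLC1A4) and chr16:70289675-70289704 (AARS). The remaining ones lie at chr11:3057407-3057436 (CARS), chr7:30594834-30594863 (GARS), chr9:92293692-92293721 (IARS), chr12:57488053-57488082 (MARS), chr18:57621804-57621833 (NARS) and chr5:33440956-33440985 (TARS). ASNS, SLC1A5, AARS, CARS, IARS and NARS are read from the minus strand and the other 6 from the plus strand. GENCODE 29 places 10 of the 13 cores in untranslated exon sequence of at least one transcript, that of SLC1A4 in an intron, and those of ATF3 and AARS outside the gene.

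Among the synthetases, matches began 13 bases before the start in IARS, 4 before it in MARS, 2 before it in CARS, at base 3 in TARS and at base 15 in NARS, the start being base 1. The match in GARS began 33 bases before the start and that in AARS 187 bases before it. The share of members with a match was 70% of 10 synthetases, 60% of 5 transporters and 3 of 13 ATF4 targets. The match in SLC3A2, not shown, began at base 38. EPRS, SARS, WARS, SLC7A5, SLC38A2, ATF4, ATF5, DDIT3, TRIB3, DDIT4, SESN2, STC2, VLDLR, PCK2 and ALDH18A1 had windows and no match, which says only that these letters are not in them. PYCR1, SLC7A11, LARS, YARS and VARS were not matched to the table. Of 6 other cytosolic synthetases none held a match, which is 0 of 6 genes, and of 14 mitochondrial ones 1 did, YARS2. Matches were also found in 4 of 15 further ATF4 targets (26.7%) and in 3 of 18 other amino acid transporters (16.7%), among them SLC7A1 with a log2 fold change of 0.03. The median log2 fold change of the 13 members with a match was -0.86, and that of the 15 others found in the table was -1.02. A match of letters is a description of the sequence, and no binding was measured in these libraries.

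**Figure D1:**
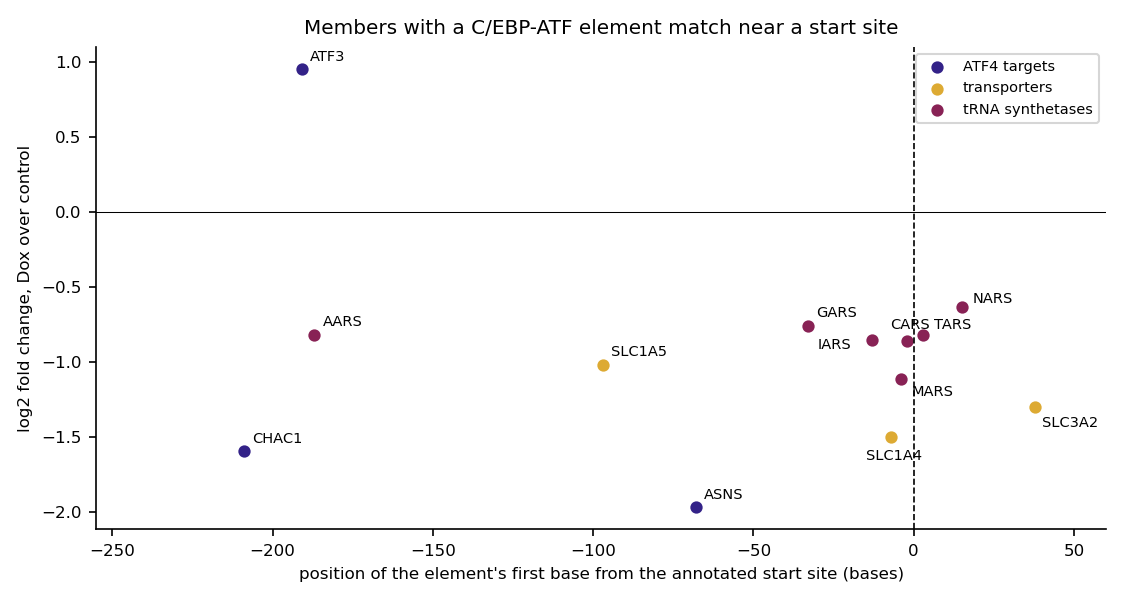
Position of the first base of each C/EBP-ATF core match from its RefSeq start site (x axis, bases, dashed line at the start) against the edgeR log2 fold change of Dox over control (y axis), 1 point for each of 13 members and coloured by class. Of the 7 synthetases 6 lie within 33 bases of the start, and ATF3 is the only member with a match whose change is above 0.

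Expected counts, RSEM's estimates of reads per gene, summed to between 42744729 and 47798920 per library, and 16107 to 16868 genes had at least 10. Levels below are CPM, counts per library size, scaled by edgeR's TMM factors, and a level of 0 counts allows up to 0.0628 to 0.0702 CPM at these depths (counting error only). All 10 fibroblast markers were present in every library, with COL1A2, a collagen chain, between 10486 and 15420 CPM. Their levels were not all alike between the groups. At the threshold used below, DCN, LUM, THY1 and VIM were higher with Dox, and COL3A1, PDGFRA and PDGFRB were lower. These are 4 and 3 of the 10, beside 16.5% and 13.8% of all tested genes. Summed over each list, 6 keratinocyte markers reached 9.85 to 12.5 CPM, nearly all from KRT10, and 4 melanocyte markers 0.281 to 0.441 CPM. The 3 endothelial markers reached at most 0.551 CPM. KRT1, KRT5 and CD3E had 0 counts in every library. The 4 immune markers together stood at 0.479 and 0.597 CPM in the control libraries and 2.43 and 2.42 CPM in the Dox libraries, most of it from PTPRC. Of the members, ATF5 and ATF3 had levels under the keratinocyte sum in every library. Whether these markers contribute to any member's difference was not tested. In bulk RNA a lower level in every cell and fewer cells that express a gene cannot be told apart.

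In the Dox libraries 26 of the 33 members were lower and 3 were higher at an adjusted p under 0.05 (edgeR's quasi-likelihood test, Benjamini-Hochberg over 16749 tested genes), where 13.8% of all tested genes were lower and 16.5% higher. All 33 members passed the filter on low counts. Because the genes were chosen with this contrast known, these counts support nothing beyond the description. Their median log2 fold change, Dox over control, was -0.86, beside -0.0023 for all tested genes. By class it was -0.82 for ATF4 and its targets, -1.16 for the transporters and -0.82 for the synthetases. Both Dox libraries lay below both control libraries for 27 members, as they did for 34.5% of tested genes, and above them for 3 members, as for 34.6%. At least 2-fold lower and past the threshold were 15 members, beside 3.34% of all tested genes. Summed over the members the level was 5823 and 5870 CPM in the control libraries and 3584 and 3722 CPM in the Dox libraries. The 2 members nearest the threshold among those past it were PYCR1 and STC2, with log2 fold changes of -0.44 and 0.34, and the 4 that did not pass were VARS (0.24), VLDLR (-0.17), SLC38A2 (0.10) and ALDH18A1 (0.04).

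**Figure D2:**
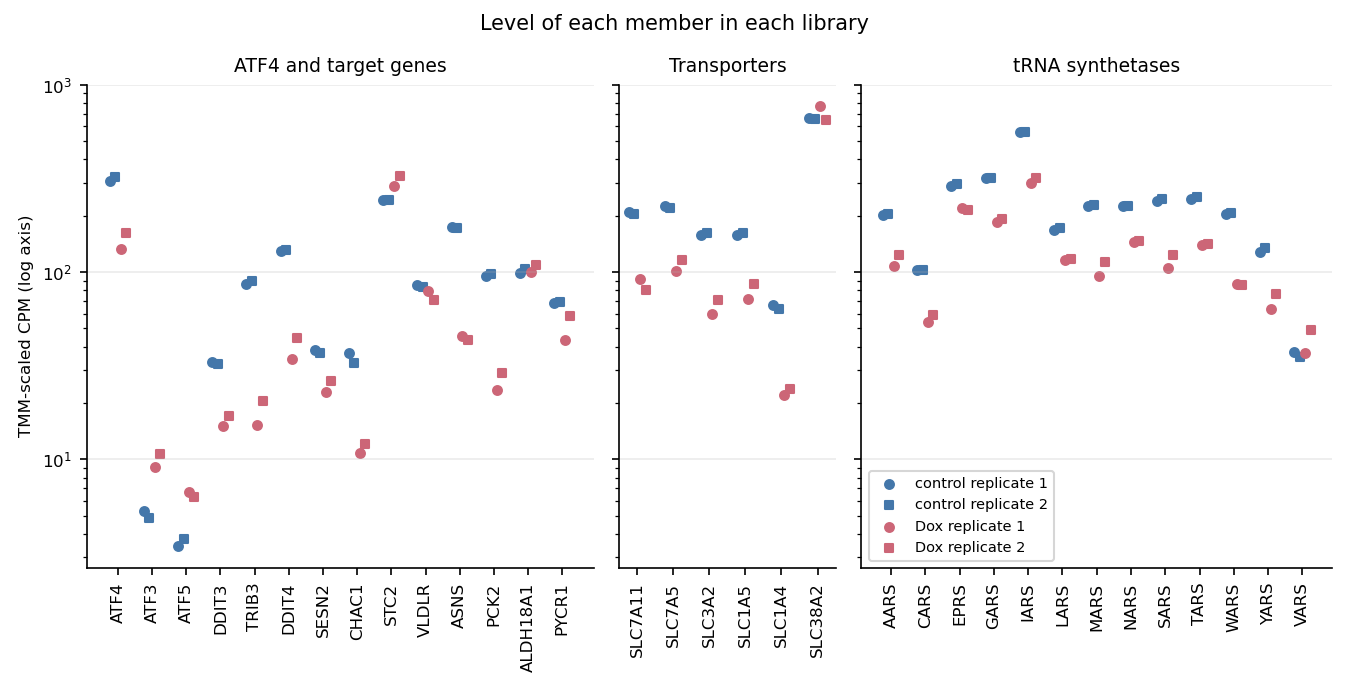
TMM-scaled CPM of each of the 33 members (log y axis) in the 2 control libraries (blue) and the 2 Dox libraries (red), circles for replicate 1 and squares for replicate 2, in panels by class. The Dox points lie below the control points for 27 members, above them for ATF3, ATF5 and STC2, and among them for ALDH18A1, SLC38A2 and VARS.

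Of the 7 regulators and feedback genes, 5 were lower and 2 higher in the Dox libraries. ATF4 itself (chromosome 22, 39519695 to 39522685, GENCODE 29 on GRCh38) stood at 306 and 322 CPM in the control libraries and at 132 and 163 CPM in the Dox libraries. Its log2 fold change was -1.09 (SE 0.11). The groups did not overlap, and the Dox libraries stood further from each other than the control libraries did. TRIB3, a pseudokinase that feeds back on ATF4 (chromosome 20, 362835 to 397559), was the member with the largest change, with 86.4 and 89.5 CPM in the control libraries against 15.3 and 20.6 CPM with Dox. It was 4.90-fold lower with Dox (log2 fold change -2.29, SE 0.14). DDIT4, an inhibitor of mTORC1 signalling also called REDD1, had 130.2 and 131 CPM in the control libraries and 34.1 and 44.2 CPM with Dox (log2 fold change -1.74, SE 0.13). DDIT3 encodes CHOP, a death-promoting factor of the same response, and went from 33.1 and 32.2 CPM to 15.2 and 17 CPM (log2 fold change -1.02, SE 0.09). For SESN2, a leucine sensor that restrains mTORC1, the values were 38.4 and 36.8 CPM in the control libraries and 22.8 and 26.2 CPM with Dox (log2 fold change -0.62, SE 0.09). In each of these 5 genes the lowest control value exceeded the highest Dox value.

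ATF3 and ATF5, both bZIP factors that ATF4 is known to induce, were higher with Dox. Per length they had the lowest levels of the 33 members in the control libraries, with 0.97 and 0.92 TPM for ATF3 and 0.66 and 0.81 TPM for ATF5 (RSEM's length-scaled unit). ATF3 had 5.32 and 4.88 CPM in the control libraries and 9.12 and 10.6 CPM with Dox (log2 fold change 0.95, SE 0.13). Its counts were 222 and 229 against 390 and 482 with Dox. ATF5 had 3.45 and 3.78 CPM against 6.69 and 6.33 CPM (log2 fold change 0.85, SE 0.13). ATF5 shares 1062 bases with NUP62 on the opposite strand, and whether the libraries keep strand is not stated, so reads from the shared stretch cannot be told apart. The average transcript length that RSEM assigned to ATF5 was also greater with Dox, at 1719 and 1831 bases against 1652 and 1534 bases.

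The 3 effectors differed from each other. CHAC1, which degrades glutathione, stood at 36.9 and 32.5 CPM in the control libraries and 10.9 and 12.1 CPM in the Dox libraries, a log2 fold change of -1.60 (SE 0.11). STC2, a secreted glycoprotein, had a log2 fold change of 0.34 (SE 0.09), its Dox values of 286 and 327 CPM lying above control values of 244 and 241 CPM. VLDLR, a lipoprotein receptor, had a log2 fold change of -0.17 (SE 0.08) that did not pass the threshold, although both Dox values, 79 and 70.7 CPM, were under both control values, 85.1 and 83.2 CPM.

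Among the 4 enzymes ASNS, which makes asparagine (chromosome 7, 97852118 to 97872542), changed most. It had 175 and 172 CPM in the control libraries and 45.5 and 43.2 CPM in the Dox libraries, a level 3.91-fold lower with Dox (log2 fold change -1.97, SE 0.07). PCK2, the mitochondrial phosphoenolpyruvate carboxykinase, had 95.1 and 97.8 CPM against 23.4 and 29.1 CPM (log2 fold change -1.88, SE 0.11). The 2 enzymes of proline synthesis differed from these in size. PYCR1, which catalyses the last step, had 68.4 and 69.5 CPM in the control libraries and 43.6 and 57.9 CPM with Dox (log2 fold change -0.44, SE 0.13), and its Dox values were further apart than the nearer one was from control. ALDH18A1, which catalyses the first steps, had overlapping groups, with 99.2 and 104 CPM in the control libraries and 99.8 and 109 CPM with Dox (log2 fold change 0.04, SE 0.08).

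Of the 6 transporters 5 were at least 2-fold lower with Dox. SLC7A11, the cystine-glutamate exchanger subunit (chromosome 4, 138164097 to 138242349), had 209.6 and 205 CPM in the control libraries and 91.2 and 80.1 CPM with Dox (log2 fold change -1.27, SE 0.09). SLC7A5, the light chain of the leucine carrier LAT1, had 226 and 219.8 CPM against 101 and 116 CPM (log2 fold change -1.04, SE 0.09). SLC3A2 encodes the heavy chain 4F2hc that pairs with both, and it had 157 and 162 CPM against 59.3 and 70.7 CPM (log2 fold change -1.30, SE 0.10). For all 3 chains of these carriers the highest Dox value was well under the lowest control value. On the length-scaled TPM scale, the level of SLC7A5 per SLC3A2 was 0.538 and 0.490 without Dox and 0.590 and 0.622 with it. The level of SLC7A11 per SLC3A2 was 0.216 and 0.199 against 0.228 and 0.186, so this ratio overlapped between the groups.

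The neutral amino acid carriers of the SLC1 family were also lower. SLC1A5, a glutamine carrier known as ASCT2, had 157 and 162 CPM in the control libraries and 71.5 and 86.1 CPM with Dox (log2 fold change -1.02, SE 0.10). SLC1A4, its relative ASCT1 that carries serine and alanine, had 66.4 and 63.4 CPM against 22 and 23.8 CPM (log2 fold change -1.50, SE 0.08), the largest change of a transporter here. SLC38A2, the glutamine carrier SNAT2, did not follow them. It had 663 and 659.7 CPM in the control libraries and 765 and 651 CPM with Dox, and the groups overlapped (log2 fold change 0.10, SE 0.09). Its gene body lies on chromosome 12 from 46358189 to 46372867.

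The synthetases, which attach each amino acid to its tRNA, formed a narrower range. Of 13 members 12 were lower past the threshold, with log2 fold changes from -1.26 in WARS to -0.43 in EPRS, and only VARS had a value above 0. WARS, for tryptophan (chromosome 14, 100333788 to 100376805), had 204 and 206 CPM in the control libraries and 85.9 and 85.2 CPM in the Dox libraries (SE 0.07). MARS, for methionine, had 226 and 228 CPM against 95.8 and 113 CPM (log2 fold change -1.12, SE 0.10). SARS, for serine, had 238 and 247 CPM against 106 and 124 CPM (log2 fold change -1.08, SE 0.10). These 3 were the synthetases at least 2-fold lower.

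A middle set of 6 synthetases had log2 fold changes between -0.90 and -0.76. YARS, for tyrosine, had 128 and 135 CPM in the control libraries and 63.8 and 76.3 CPM with Dox. CARS, for cysteine, had 103 and 102 CPM against 53.9 and 59.3 CPM. IARS, for isoleucine, had 558 and 558 CPM against 298 and 318 CPM. In all 3 the Dox libraries stood under the control libraries. TARS, for threonine, had 244 and 252 CPM against 139 and 142 CPM. AARS, for alanine, had 203 and 203 CPM against 107 and 123 CPM. GARS, for glycine, had 317 and 319 CPM against 184 and 192 CPM. None of these 6 overlapped between groups.

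The smallest declines were in NARS, LARS and EPRS. NARS, for asparagine, had 224 and 226 CPM in the control libraries and 144 and 146 CPM with Dox (log2 fold change -0.64, SE 0.07). LARS, for leucine, had 168 and 172 CPM against 115 and 117 CPM (log2 fold change -0.55, SE 0.07). EPRS, the joint enzyme for glutamate and proline, had 287 and 295 CPM against 220.1 and 213 CPM (log2 fold change -0.43, SE 0.07). VARS, for valine (chromosome 6, 31777518 to 31795953), was the exception. Its control values were 37.6 and 35.4 CPM and its Dox values 36.8 and 49.2 CPM, so the groups overlapped (log2 fold change 0.24, SE 0.14). Dox replicate 2 stood above both control libraries, and Dox replicate 1 stood between them.

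Per length, the order of the synthetases in the control libraries ran from GARS, at 48.2 and 50.3 TPM, through IARS (42.6 and 43.7 TPM), SARS (41 and 43.5 TPM), MARS (39.7 and 41.4 TPM), TARS (39.1 and 41.4 TPM) and WARS (37.1 and 39.4 TPM). GARS stood above IARS in both libraries, while the ranges of neighbours from IARS to WARS overlapped. NARS followed at 26 and 27.2 TPM. AARS (20 and 19.5 TPM), YARS (18.6 and 20.3 TPM) and EPRS (18.2 and 19.4 TPM) came next, and YARS overlapped both of the others. CARS stood at 15.6 and 17.1 TPM, LARS at 13.7 and 14.5 TPM, and VARS was lowest at 3.77 and 3.93 TPM. In the Dox libraries the TPM of every synthetase was higher in replicate 2 than in replicate 1, GARS having 23.9 and 42.2 TPM and WARS 14.3 and 23.5 TPM. The direction was shared by the libraries at large. The median log2 ratio of TPM + 1, Dox replicate 2 over Dox replicate 1, was 0.38 over all tested genes and 0.72 over the members. Adding 1 shrinks this ratio most in genes of low TPM, so the 2 medians do not show that the members differed more. Protein-coding genes together took 9.11% of TPM in Dox replicate 1 and 14.9% in Dox replicate 2.

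The same fit covered the synthetases outside the member list. Of 7 other cytosolic synthetases 1 was lower, and the median log2 fold change was -0.14. Over all tested genes 13.8% were lower. DARS, for aspartate, fell from 91.7 ± 3.65 to 72.1 ± 3.26 CPM (SD, n = 2 each, log2 fold change -0.35, edgeR adjusted p = 0.0186). KARS, QARS, HARS, FARSA, FARSB and RARS did not pass, with log2 fold changes from -0.18 to 0.20. Without either control library DARS did not pass, while 2 and 4 of the 7 were lower without Dox replicate 1 and Dox replicate 2. Of 17 mitochondrial synthetases, beside the same 13.8% of all tested genes, 3 were lower and 14 did not pass, with a median of -0.21. Among them NARS2 fell from 10.6 ± 0.117 to 8 ± 0.0606 CPM (SD, n = 2 each, log2 fold change -0.40, edgeR adjusted p = 0.0265). PARS2 was named after its value was seen and had a log2 fold change of -0.72. The mitochondrial count moved when single libraries were left out, as calls over all tested genes also did. AIMP2, a scaffold of the multisynthetase complex, fell from 18.7 ± 0.247 to 11.1 ± 1.69 CPM (SD, n = 2 each, edgeR adjusted p = 0.0062), and the other scaffold genes AIMP1 and EEF1E1 did not pass. No test of the difference between these lists was made, since the 13 members were chosen on this contrast.

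**Figure D3:**
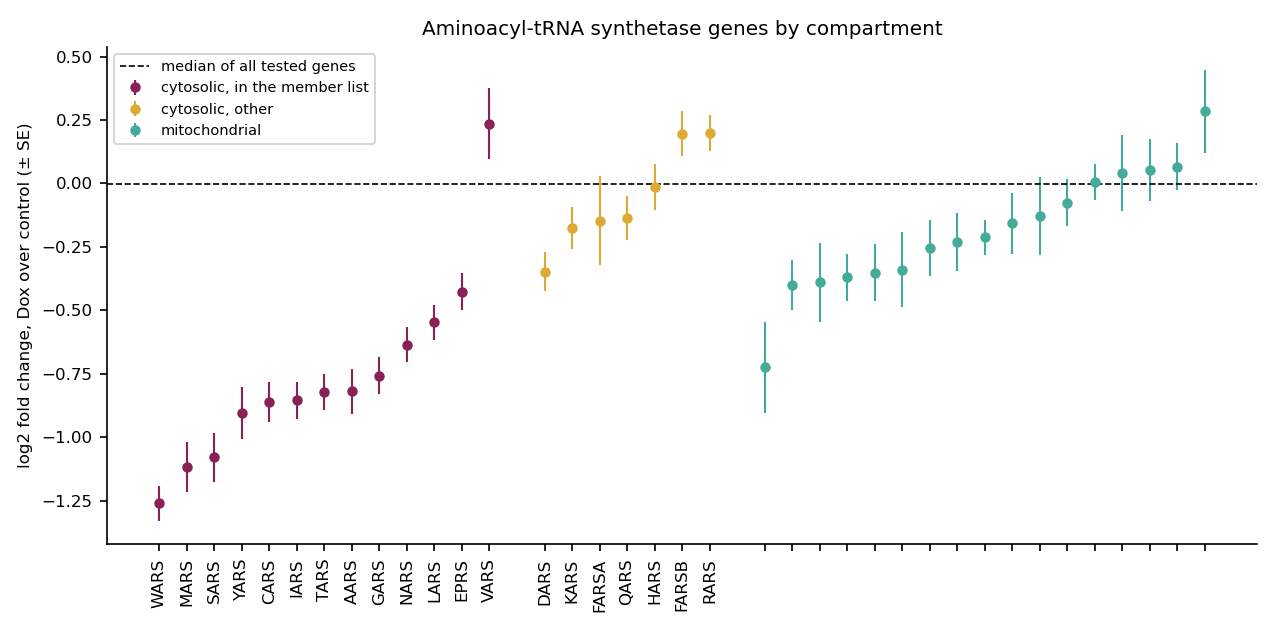
Log2 fold change of Dox over control with its standard error (y axis) for 13 cytosolic synthetases of the member list, 7 other cytosolic and 17 mitochondrial synthetases (x axis, sorted within each set, the mitochondrial ones without names). The dashed line is the median of all tested genes, -0.0023, and the members other than VARS lie between -1.26 and -0.43.

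The genes that act above ATF4 were measured as RNA only, and eIF2 phosphorylation was not measured. All 4 eIF2 kinases were higher with Dox, within a list of 16 genes in which 4 rose, 4 fell and 8 did not pass. Over all tested genes 16.5% rose and 13.8% fell. EIF2AK2, the double-stranded RNA sensor PKR, rose from 87.5 ± 2.26 to 125 ± 17.9 CPM (SD, n = 2 each, log2 fold change 0.52, edgeR adjusted p = 0.0149). EIF2AK1, the haem-regulated kinase HRI, rose from 40.7 ± 0.341 to 54.9 ± 4.68 CPM (SD, n = 2 each, log2 fold change 0.43, edgeR adjusted p = 0.0115). EIF2AK3 (PERK) and EIF2AK4 (GCN2), both named after their values were seen, each had a log2 fold change of 0.32. None of the 4 rises passed without control replicate 1 or without control replicate 2. EIF2S2, the beta subunit of eIF2, fell from 190.2 ± 4.17 to 128 ± 0.483 CPM (SD, n = 2 each, log2 fold change -0.57, edgeR adjusted p = 0.00237), but lost the call when control replicate 2 was left out. PPP1R15B, the constitutive eIF2 phosphatase subunit CReP, fell from 92.9 ± 2.85 to 61.1 ± 2.64 CPM (SD, n = 2 each, log2 fold change -0.61, edgeR adjusted p = 0.00237). PPP1R15A, the stress-induced subunit GADD34 and an ATF4-pathway target, had a log2 fold change of -0.03 and did not pass. The 5 subunits of the exchange factor eIF2B did not pass either.

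Further ATF4 targets, a list written with earlier results of these data known, were lower for the most part: 14 of 19 tested genes fell, 2 rose and 3 did not pass, with a median log2 fold change of -1.13. Of the 14, 12 were at least 2-fold lower. Beside these stand 13.8% of all tested genes lower, 16.5% higher and 3.34% at least 2-fold lower. PSAT1, a serine synthesis enzyme, fell from 271 ± 6.64 to 71.5 ± 2.32 CPM (SD, n = 2 each, log2 fold change -1.92, edgeR adjusted p = 7.02e-05). MTHFD2, a mitochondrial folate enzyme, fell from 247 ± 3.53 to 84.8 ± 0.0136 CPM (SD, n = 2 each, log2 fold change -1.54, edgeR adjusted p = 9.63e-05). XPOT, the exporter of tRNA from the nucleus, was named after its value was seen and had a log2 fold change of -1.13. GDF15, a secreted stress cytokine, rose from 19.6 ± 0.546 to 45.9 ± 8.12 CPM (SD, n = 2 each, log2 fold change 1.23, edgeR adjusted p = 0.00129). ERO1A, an oxidase of the endoplasmic reticulum, rose from 62.7 ± 1.13 to 130.1 ± 18.6 CPM (SD, n = 2 each, log2 fold change 1.05, edgeR adjusted p = 0.00121). CEBPB, CTH and PPP1R15A did not pass, and FGF21 was under the filter on low counts.

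Amino acid carriers outside the member list moved in both directions. Of 20 tested, 7 rose, 6 fell and 7 did not pass, and the median log2 fold change was 0.10. The shares of all tested genes were 16.5% higher and 13.8% lower. SLC6A9, a glycine carrier, fell from 23.3 ± 0.801 to 8.88 ± 0.32 CPM (SD, n = 2 each, log2 fold change -1.39, edgeR adjusted p = 0.000257). SLC38A1, the close relative of SLC38A2, fell from 283 ± 5.16 to 167 ± 8.4 CPM (SD, n = 2 each, log2 fold change -0.76, edgeR adjusted p = 0.0011). SLC1A1, a glutamate carrier, rose from 13.9 ± 0.41 to 23.1 ± 0.322 CPM (SD, n = 2 each, log2 fold change 0.74, edgeR adjusted p = 0.00179). SLC7A8, the light chain of LAT2, rose from 0.44 ± 0.0118 to 1.93 ± 0.546 CPM (SD, n = 2 each, log2 fold change 2.12, edgeR adjusted p = 0.00355). Without control replicate 1 and control replicate 2, 4 and 3 carriers rose. SLC6A15, SLC16A10 and SLC3A1 were under the filter.

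In a list of 16 genes written for amino acid sensing by mTORC1, 6 rose and 10 did not pass, with a median log2 fold change of 0.0040. By comparison 16.5% of all tested genes rose. The 6 include DDIT4L, a relative of the mTORC1 inhibitor DDIT4 and not an amino acid sensor. They also include RRAGD, which reached at most 0.485 CPM in any library. Both were named after their values were seen. SESN1, a relative of SESN2, rose from 21.4 ± 0.102 to 32.5 ± 1.95 CPM (SD, n = 2 each, log2 fold change 0.60, edgeR adjusted p = 0.00373), while SESN2 was lower as given above. RRAGC, a Rag GTPase, rose from 23.2 ± 0.118 to 31.6 ± 2.23 CPM (SD, n = 2 each, log2 fold change 0.44, edgeR adjusted p = 0.012). Without control replicate 1 or control replicate 2 the rises numbered 2 and 1, and RRAGC did not pass. Without Dox replicate 1 and Dox replicate 2, 4 and 5 genes of this list fell.

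The separate ATF6 and XBP1 arms of the unfolded protein response, which control chaperones of the endoplasmic reticulum, were taken as a single list. It had 7 rises and 1 fall among 15 genes, with a median log2 fold change of 0.33, beside 16.5% and 13.8% of all tested genes. Counts per gene measure neither ATF6 cleavage nor XBP1 splicing, so the activity of these arms was not measured. HSP90B1, the chaperone GRP94, rose from 524 ± 12 to 934 ± 10.8 CPM (SD, n = 2 each, log2 fold change 0.83, edgeR adjusted p = 0.000606). HSPA5, the chaperone BiP, rose from 295 ± 0.487 to 526 ± 40.5 CPM (SD, n = 2 each, log2 fold change 0.83, edgeR adjusted p = 0.00105). XBP1 fell from 167 ± 5.08 to 101 ± 6.01 CPM (SD, n = 2 each, log2 fold change -0.73, edgeR adjusted p = 0.00145). Without control replicate 1 or control replicate 2 the rises numbered 2 in each case.

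**Figure D4:**
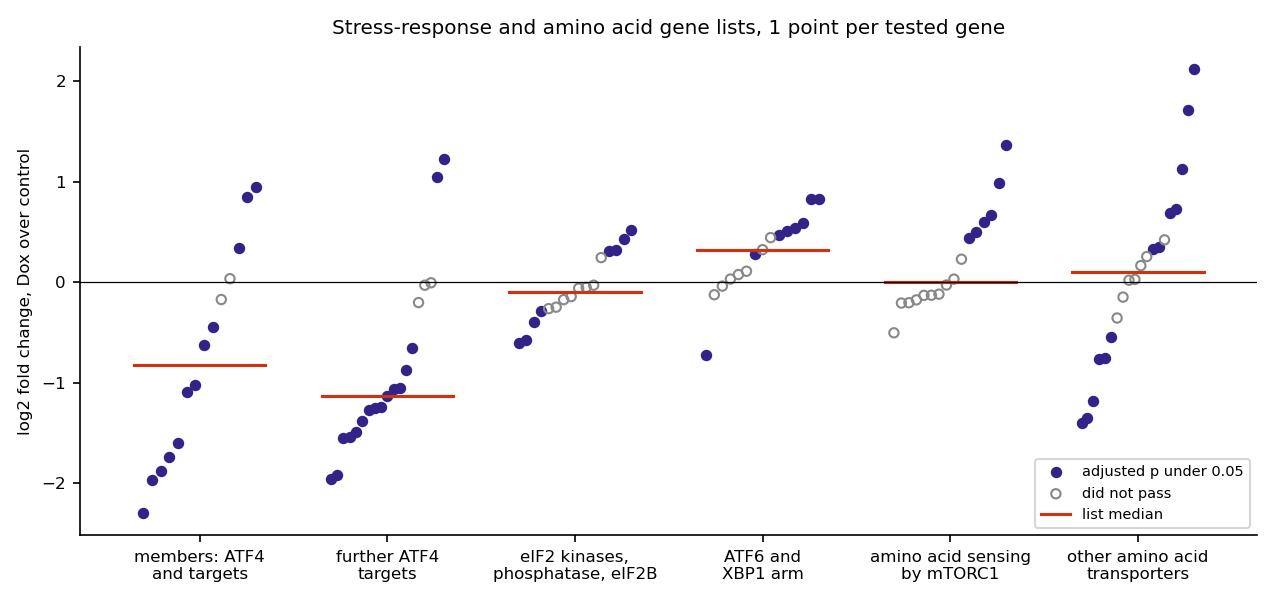
Log2 fold change of Dox over control (y axis) for each tested gene of 6 lists (x axis), filled where the edgeR adjusted p was under 0.05 and open where it was not, with the list median as a red bar. Medians run from -1.13 in the further ATF4 targets to 0.33 in the joint list of the ATF6 and XBP1 arms, and the member genes were chosen on this contrast.

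The Dox libraries differed from each other more than the control libraries did, and the members shared in this. Between the counts of a pair, chi-square per degree of freedom was 60.5 with Dox and 2.40 in the control libraries. Over 16717 genes, which are not independent replicates, Spearman's rho of transcript GC content with the log2 ratio of Dox replicate 1 over Dox replicate 2 was -0.598. The corresponding value was -0.0239 between the control libraries and -0.0380 between the groups. Of 12 members with at least 55% GC, 11 were higher in Dox replicate 2, with a median log2 ratio of 0.28. Of 12 members from 45% to under 55% GC, 11 were also higher there, with a median of 0.18. Of 9 members under 45% GC, 4 were higher there, with a median of -0.04. ATF5 was the exception at high GC, and SLC38A2 and SLC7A11 were the members furthest on the other side. With offsets for the GC trend of each library, 31 members passed the threshold, VARS and VLDLR being added with log2 fold changes of 0.19 and -0.23. Calls also rose at large, to 8021 of 16717 tested genes with these offsets from 5073 of 16749 in the main fit. Over all genes the same offsets moved the share of higher among called genes from 54.5% to 41.6%.

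**Figure D5:**
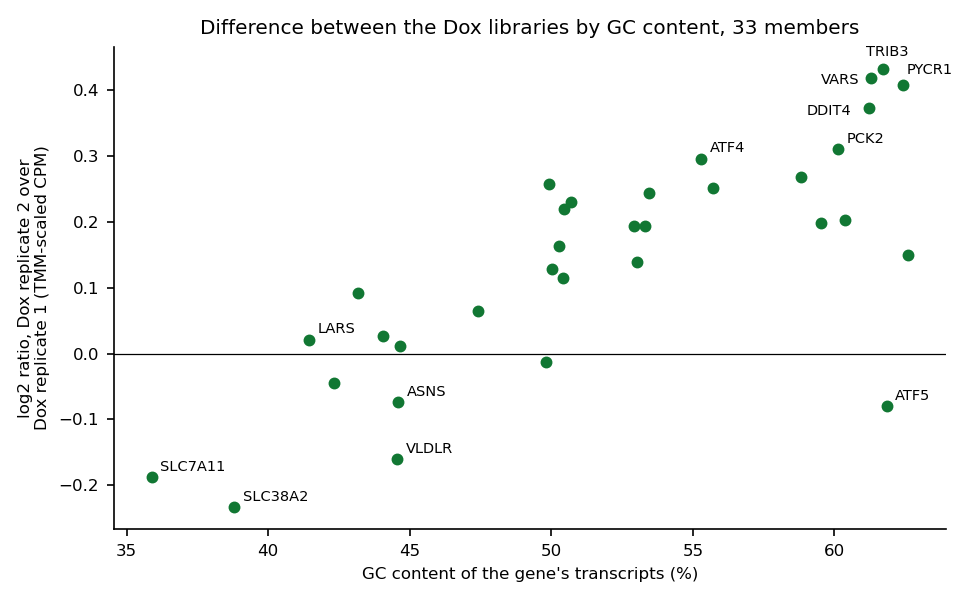
GC content of each member's transcripts (x axis, percent) against the log2 ratio of its TMM-scaled CPM in Dox replicate 2 over Dox replicate 1 (y axis), 1 point per member. Of 12 members with at least 55% GC 11 lie above 0, as do 11 of 12 from 45% to under 55%, and of 9 members under 45% GC 4 do.

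Calls among the members depended on single libraries in a few genes. Without control replicate 1 or control replicate 2, EPRS, PYCR1 and STC2 did not pass, and without control replicate 2 neither did LARS. Without Dox replicate 1 VARS and VLDLR passed, and without Dox replicate 2 SLC38A2 did. Calls over all tested genes likewise fell without a control library and rose without a Dox library. These moves are therefore not particular to the members, nor are those given above for the comparison lists. The members' median log2 fold change was -0.87 without either control library, -0.82 without Dox replicate 1 and -0.93 without Dox replicate 2. On log2(TPM + 1) and log2(TPM + 0.1), tested with limma, 4 and 5 members passed, beside 794 and 835 of 16749 tested genes. Higher genes made up 75.1% and 76.3% of all called genes. Protein-coding genes took 10.4% and 10.8% of control TPM, and 9.11% and 14.9% of TPM in Dox replicates 1 and 2. After TPM was rescaled over protein-coding genes alone, an alternative chosen after seeing the data, 27 members passed and their median log2 difference was -0.85. Beside them 3685 of 13432 tested genes passed on that scale. PYCR1 and STC2 were the 2 that no longer passed, and higher genes made up 54.0% of calls. In TPM as deposited, the Dox values lay under the control values for 24 members and above them for ATF3, ATF5 and SLC38A2. The share of all tested genes on this scale is not given here, and the shares given above for CPM do not carry over. These TPM counts are therefore a description only.

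The average transcript length that RSEM assigned differed by at least 10% of the smaller group mean, between groups that did not overlap, in 3 members, beside 9.37% of all tested genes. CARS had 2025 and 1899.5 bases in the control libraries and 2334 and 2461 bases in the Dox libraries, and VLDLR had 4998 and 4623 bases against 4461 and 4262 bases. ATF5 was the other. DDIT3 and MARS lie on opposite strands of chromosome 12 and share 982 bases, and VLDLR-AS1 overlaps VLDLR on the opposite strand over 21526 bases, with 236 and 292 counts without Dox and 97 and 93 with it. AC079781.5, annotated on the same strand over ASNS, took 273 and 281 counts without Dox and 104 and 123 with it. WARS shares 388 bases with WDR25 on the opposite strand. Pseudogene copies of the members took at most 0.225% of a member's count, the largest being SLC7A5P1.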

How the data were processed

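The authors used cutadapt, STAR, Picard and RSEM with build hg38, per the submitters' processing notes, with tool versions not given in the sources used here. The deposited expected counts are so named per the file headers and were rounded to whole numbers for testing. The deposited TPM values, scaled by length and to one total per library, are so named per the file headers. Of the gene identifiers 99.54% matched GENCODE 29. edgeR 4.0.16 (R 4.3.3) kept genes by filterByExpr (minimum count 10, minimum total 15), scaled by TMM and fitted a quasi-likelihood model (glmQLFit, glmQLFTest) to all 4 libraries by group. P-values were adjusted after Benjamini and Hochberg and called under 0.05, and a standard error is the log2 fold change divided by the square root of F. Motifs were searched with Python 3.11.15. The members and all lists were chosen with earlier results of these data known. All members are named, and in each comparison list the 2 genes with the smallest adjusted p in each direction. Any further gene was picked once its value was known, and values of some genes under this rule are not reported here. Alternatives used DESeq2 1.42.0, limma 3.58.1 on log2(TPM + 1) and log2(TPM + 0.1), glmTreat at 1.5-fold, other scalings and filters, a replicate block, GC offsets and single libraries left out. The fit was also run on simulated counts with known folds, and the outcome is not reported here. Those counts held no GC-linked difference between the Dox libraries, so that run cannot show its effect on the calls.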

Additional observations from a re-analysis of the deposited data

How the results depend on the processing

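With 2 libraries per group, and Dox libraries that differ along GC content, the number of calls is imprecise. No member changed direction past the threshold under any alternative run. The titles share replicate numbers, but same-numbered libraries did not deviate together (correlation 0.0383), and with the replicate number as a block 2972 genes were higher and 2511 lower, with 9, 5 and 12 ATF4 targets, transporters and synthetases lower, as without it. DESeq2's size factors and the removal of RN7SL and mitochondrially encoded genes moved no count by over 1.5 times. The median over all genes, near 0, became 0.12 without a filter on low counts and 0.13 on log2(TPM + 0.1). DESeq2's Wald test left 1 mitochondrial synthetase lower, and without a filter 1 mTORC1 sensing gene was lower.

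Main counts over all genes were 2764 higher and 2309 lower. Against these, log2(TPM + 1) gave 596 and 198, log2(TPM + 0.1) 637 and 198, glmTreat at 1.5-fold 787 and 480, and GC offsets 3339 and 4682. On both TPM scales 0 ATF4 targets were higher, 4 and 5 lower, 0 transporters lower and 0 synthetases lower. The same scales gave 0 lower other cytosolic, mitochondrial and scaffold genes, 0 higher and 0 lower eIF2 genes, 0 higher and 3 lower further ATF4 targets, 2 higher other transporters with 1 and 0 lower, 0 and 1 higher mTORC1 genes, and 0 higher and 0 lower ATF6 and XBP1 genes. TPM rescaled over protein-coding genes, which are fewer genes, gave 1 higher and 0 lower other cytosolic synthetases, 1 lower mitochondrial synthetase, 4 higher other transporters and 3 higher mTORC1 genes. glmTreat, which asks for a larger change, gave 0 higher ATF4 targets and 7 lower synthetases, 0 lower other cytosolic, mitochondrial and scaffold genes, 0 higher and 0 lower eIF2 genes, 1 higher and 2 lower other transporters, 0 higher mTORC1 genes, and 2 higher and 0 lower ATF6 and XBP1 genes. GC offsets gave 1 higher member synthetase, with 3 other cytosolic, 8 mitochondrial and 3 scaffold genes, 9 eIF2 genes, 5 mTORC1 genes and 2 ATF6 and XBP1 genes lower. Beyond these constructions the cause of each move was not tested.

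Leaving out each library in turn gave 1368 to 4654 higher and 1000 to 5017 lower genes. Lower ATF4 targets ranged from 8 to 10, transporters stayed at 5 and synthetases ranged from 10 to 12, while higher transporters and higher synthetases ranged from 0 to 1. Other cytosolic synthetases ranged from 0 to 2 higher and 0 to 4 lower, mitochondrial ones from 0 to 2 higher and 0 to 12 lower, and scaffold genes from 1 to 3 lower. The eIF2 list ranged from 0 to 6 higher and 1 to 8 lower, other transporters from 3 to 8 higher, mTORC1 genes from 1 to 7 higher and 0 to 5 lower, and ATF6 and XBP1 genes from 2 to 10 higher and 1 to 2 lower. Further ATF4 targets ranged from 14 to 15 lower. In each such fit the lone library of a group is assumed to vary like the other group.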
